A study of Homo sapiens with 12 samples.

Results

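Farage and SU-DHL-8 are established human lines of diffuse large B cell lymphoma, a tumour of mature B cells, and both were given morusinol for 12 h before RNA was taken. The comparison described here is between the 3 Farage and the 3 SU-DHL-8 libraries of morusinol-treated cells, 6 of the 12 libraries in the series, chosen by line and treatment in their labels and by no measured value. The other 6 libraries are controls at 12 h, 3 from each line, which the series describes as given vehicle; they enter as the background difference between the lines without the drug. The labels list no engineered allele, no dose of morusinol, and no statement that replicates were separate cultures. The p-values below therefore measure the spread between these libraries, which may be technical. Each side is 1 line, so whatever sets Farage apart from SU-DHL-8, whether lineage, mutation or culture history, cannot be told apart from the line itself.

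Morusinol is a prenylated flavonoid from mulberry (Morus) root bark. Diffuse large B cell lymphoma is commonly divided by its likeness to germinal centre B cells or to activated B cells, the second kind being known for constant NF-kappaB activity. Farage is known as a line that carries Epstein-Barr virus, whose latency proteins LMP1 and EBNA2 switch on NF-kappaB and many host genes in B cells, while SU-DHL-8 is known as free of it. Mature B cells also carry MHC class II, a pair of surface chains that shows peptides to helper T cells and whose genes are all driven by the coactivator CIITA. Cells under stress use a pair of linked programmes that recur below. In the integrated stress response, phosphorylated eIF2alpha leads to the factor ATF4, which raises genes of amino acid uptake and synthesis. In the unfolded protein response, XBP1 and ATF6 raise the chaperones of the endoplasmic reticulum.

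Values are FPKM, fragments per kilobase of gene and scaled to the size of the library, as the authors deposited them. Differences are Farage minus SU-DHL-8 on the log2(FPKM + 1) scale with their standard error (SE), from 1 limma fit over all 12 libraries, so a positive value is higher in Farage. Group means are given ± SD over 3 libraries, and a pair of values is in the order Farage, then SU-DHL-8, unless a sentence says otherwise. The added 1 makes these differences smaller than the true ratio for low genes. Testing covered the 17574 genes that reached 1 FPKM in at least 3 libraries, and a gene is called where its adjusted p (Benjamini-Hochberg, over all of them) is under 0.05. A gene is said to be at a similar level where the whole 95% interval of its difference lies within 1.5-fold either way and its higher group mean is at least 5 FPKM. Such a gene can also be called, when a small difference is measured closely. The difference of the responses is the Farage minus SU-DHL-8 difference under morusinol less that in the controls. It shares libraries with both, so the 3 values of a gene are set side by side and are not independent of each other.

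Treated Farage libraries were estimated to hold 9.37 to 12.7 M fragments (M for mega) and treated SU-DHL-8 libraries 6.05 to 15.0 M, the lowest being SU-DHL-8 replicate 2. The markers of B lymphocytes MS4A1, CD79A, CD79B, PAX5 and CD22 were each present at 1 FPKM or more in at least 1 of the treated lines. The 14 markers of T and NK cells summed to 46.1 to 56.4 FPKM in treated Farage and 2.81 to 3.87 in treated SU-DHL-8, in Farage nearly all of it TRAC, the constant gene of the T cell receptor alpha chain, while CD3D was at 0 in all 6 libraries. The 14 myeloid markers summed to 0.90 to 1.09 FPKM in Farage and 1.61 to 2.13 in SU-DHL-8, with S100A8 and S100A9 at 0, and the 14 stromal, endothelial and epithelial markers to 2.31 to 4.15 and 0.565 to 0.790. One structural RNA, RN7SL1 of the signal recognition particle, held 28.9% to 31.5% of the summed FPKM in treated SU-DHL-8 and 21.5% to 23.1% in treated Farage. With libraries rescaled to the sum over protein-coding genes, which leaves RN7SL1 out, 6153 genes were called higher in Farage and 5260 higher in SU-DHL-8 under morusinol. Because these are bulk samples, fewer cells that express a gene and less of its RNA per cell cannot be told apart.

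The 2 lines were far apart after 12 h of morusinol. Across genes, log2 values of libraries of the same treated line correlated with Pearson r of 0.964 to 0.974, and those of the 2 treated lines with 0.753 to 0.767, against 0.777 to 0.796 between the 2 sets of controls. Of 17574 genes, 11441 (65.1%) were called, with 5801 (33.0%) higher in Farage and 5640 (32.1%) higher in SU-DHL-8. The 3 Farage values lay wholly above or wholly below the 3 SU-DHL-8 values for 11818 genes (67.2%). Called differences of at least 2-fold covered 4468 genes (25.4%), 2638 of them (15.0%) higher in Farage and 1830 (10.4%) higher in SU-DHL-8. Under the authors' scaling 50.7% of called genes were higher in Farage, and with libraries rescaled to a common sum (TPM) 61.8% were. That rescaling moved the median difference of all genes from 0.01 to 0.20, so small differences should be read against that shift.

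The same comparison in the controls, made with other libraries, gave numbers of much the same size. It called 11271 genes (64.1%), 6067 (34.5%) higher in Farage and 5204 (29.6%) higher in SU-DHL-8, and 4274 (24.3%) by at least 2-fold. The median absolute difference was 0.55 under morusinol and 0.52 in the controls. Of the 4468 genes at least 2-fold apart under the drug, 2939 (65.8%) were also at least 2-fold apart in the controls, which is 68.8% of the control set, and 2932 of these 2939 had the same direction. Across all genes the 2 differences correlated with r = 0.86, a description over genes that share length and base composition. The difference of the responses was called for 6126 genes (34.9%), 3038 (17.3%) towards Farage and 3088 (17.6%) towards SU-DHL-8, and reached 2-fold for 1138 (6.48%). Among the 10507 protein-coding genes tested it leaned to Farage, with 2842 called that way and 2035 towards SU-DHL-8. This balance depends on scaling. Over all genes, TPM scaling gave 3373 towards Farage and 2024 towards SU-DHL-8. Rescaling libraries to their median ratio gave 2513 and 3584, a lean the other way.

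Genes that ended at the same level were as many under the drug as without it. A group mean of at least 5 FPKM was reached under morusinol by 8564 genes, of which 6836 (79.8%) were called and 3316 (38.7%) were at a similar level. In the controls 3214 of 8262 genes (38.9%) were at a similar level. The 2 sets shared 2221 genes, 67.0% of the drug set and 69.1% of the control set. Of the 8564 genes, 2553 were at least 2-fold apart, 2426 were called with less than that, 1857 were similar although called, 1459 were similar and not called, and 269 were none of these.

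**Figure D1:**
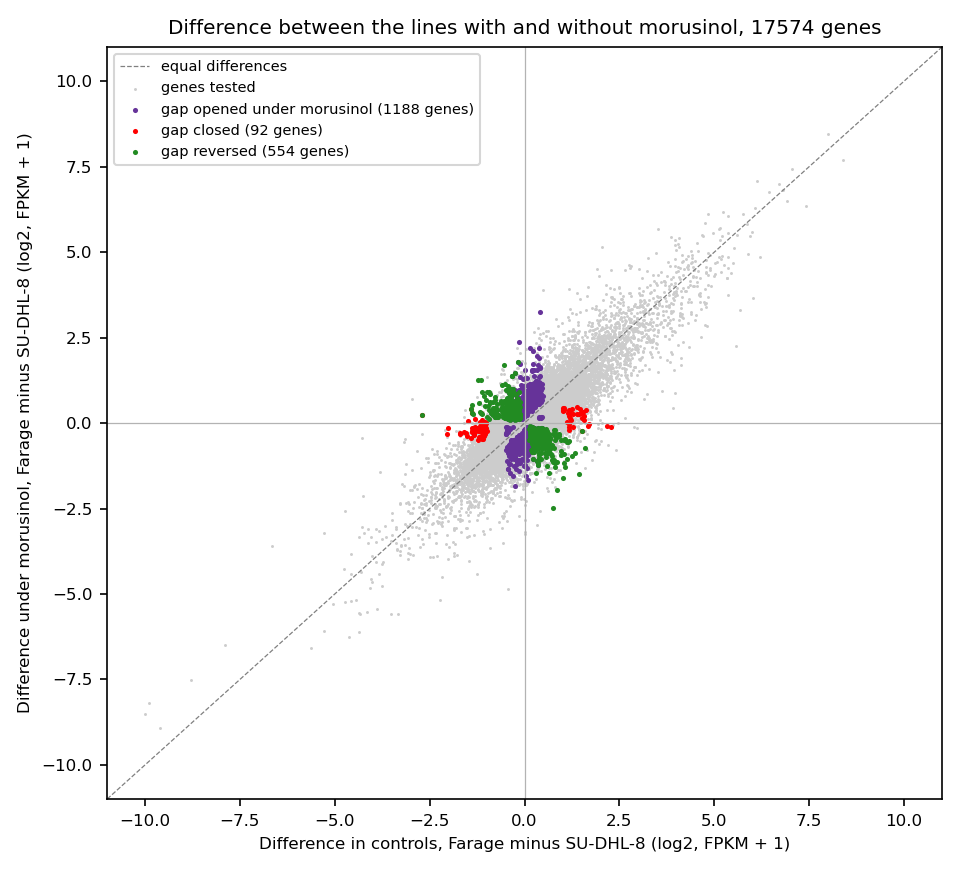
Difference between the lines in the controls (horizontal) and under morusinol (vertical), both Farage minus SU-DHL-8 in log2 of FPKM + 1, with 1 point per gene for 17574 genes. Most genes lie along the dashed line of equal differences (r = 0.86); 1188 genes are coloured as opened, 92 as closed and 554 as reversed, and the 279 that are both opened and reversed are drawn as reversed.

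The 12 protein-coding genes with the largest differences in favour of Farage were near or at 0 in SU-DHL-8. They were GSTP1, UCHL1, SERPINB9, LMO2, MMP7, IRF8, BCL2A1, RFTN1, SLAMF7, SLAMF1, DUSP4 and LGALS3. GSTP1 (chr11:67583595-67586656 in GENCODE 29 on GRCh38), a glutathione transferase that conjugates drugs and electrophiles, read 215, 214 and 187 FPKM in the Farage libraries and was at a listed 0 in each SU-DHL-8 library. UCHL1, a deubiquitinating enzyme best known in neurons and germinal centre B cells, read 179, 174 and 167 FPKM in Farage and was likewise listed at 0 in SU-DHL-8. In both genes the treated groups were fully apart, and the control SU-DHL-8 means were likewise near 0, with GSTP1 at 349.8 ± 26.8 FPKM and UCHL1 at 133 ± 12.4 FPKM (SD, n = 3) in Farage.

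Among the other 10, LMO2, a transcriptional adaptor of germinal centre B cells, read 111, 117 and 105 FPKM in Farage and was listed at 0 in SU-DHL-8, and MMP7, the metalloproteinase matrilysin, read 108, 103 and 108 and was also listed at 0. IRF8, an interferon regulatory factor of B cells and myeloid cells, was at 89.8 ± 2.26 FPKM in Farage and 0.0112, 0 and 0.017 in the SU-DHL-8 libraries. SERPINB9, which inhibits granzyme B, was at 128 ± 1.85 FPKM against 0, 0.0399 and 0 (difference 6.99 ± 0.04). These 4 genes were silent or nearly so in SU-DHL-8 with and without the drug.

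For some of the 12 the level in Farage also differed between treated and control cells, so that the distance was not the same. SLAMF7, a surface receptor of the SLAM family found on plasma cells and activated B cells, read 109, 109 and 111 FPKM in treated Farage and 0.53, 0.683 and 0.373 in treated SU-DHL-8, against control means of 39.5 and 0.0878. DUSP4, a phosphatase that switches off ERK, read 80.96, 83.7 and 78.6 in treated Farage and 0.285, 0.136 and 0.147 in treated SU-DHL-8, against 30.03 and 0.0861 in the controls. Their differences of the responses were 0.96 ± 0.095 (limma adjusted p = 3.5e-05) and 1.27 ± 0.083 (adjusted p = 2.2e-06). BCL2A1, an NF-kappaB target that blocks apoptosis, went the other way, from a control mean of 256 FPKM in Farage to 128, 135 and 126 under the drug, and stayed at 0.621, 0.332 and 0.873 in treated SU-DHL-8.

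The 12 protein-coding genes with the largest differences in favour of SU-DHL-8 were HLA-DRA, IGLL1, TCL1A, DEPP1, CD69, RAG1, VDR, DSTN, HLA-DRB1, HLA-DOA, ACSM3 and OLAH. HLA-DRA (chr6:32439842-32445046), the alpha chain of the class II molecule HLA-DR, read 946, 933 and 918 FPKM in the treated SU-DHL-8 libraries and 0.667, 1.2 and 0.976 in the treated Farage libraries, a difference of -8.91 ± 0.082 (limma adjusted p = 7.8e-14). IGLL1 and RAG1 belong to the making of antigen receptors in immature B cells, as part of the surrogate light chain and of the recombinase. IGLL1 read 272, 220.2 and 250.5 FPKM in SU-DHL-8 against 0.484, 0.416 and 0.208 in Farage, and RAG1 read 55.9, 49.7 and 52.9 against 0.186, 0.0953 and 0.0953. The groups did not overlap for any of the 12 genes. RAG1 overlaps RAG2 on the opposite strand and ACSM3 overlaps THUMPD1, ERI2 and ACSM1, and since no source used here gives the strand of counting, their reads cannot be told apart. The same holds for these genes named below, each with an expressed partner on the opposite strand: ACAT2, ARHGAP9, ATF5, CIITA, CRELD2, DDIT3, GINS2, GPER1, HLA-DMA, HLA-DPA1, HLA-DPB1, HSP90B1, PRDM1, RB1 and SQSTM1.

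Several of these genes were higher in SU-DHL-8 already in the controls and moved further under the drug. CD69, an early activation receptor of lymphocytes, read 114, 113 and 113 FPKM in treated SU-DHL-8 and 1.59, 1.36 and 1.22 in treated Farage, against control means of 25.8 and 1.36. DEPP1, a gene driven by FOXO factors, had treated values of 57.4, 59.2 and 57.9 in SU-DHL-8 and 0.292, 0.143 and 0.235 in Farage. VDR, the vitamin D receptor, had 51.3, 53.7 and 51.5 in SU-DHL-8 and 0.111, 0.141 and 0.148 in Farage. OLAH, a thioesterase that releases fatty acids from fatty acid synthase, was the one with little difference in the controls, at 0.372 FPKM in SU-DHL-8 and 0.0172 in Farage. Under morusinol it read 27.7, 29.5 and 27.2 FPKM in SU-DHL-8 and 0, 0.0229 and 0 in Farage, and the difference of the responses was -4.42 ± 0.105 (limma adjusted p = 9e-09). ACSM3, a medium-chain acyl-CoA synthetase of mitochondria, followed with -2.94 ± 0.088. TCL1A, a coactivator of AKT, and IGLL1 were the reverse, with a smaller gap under the drug than in the controls (-6.49 against -7.89, and -7.5 against -8.78).

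**Figure D2:**
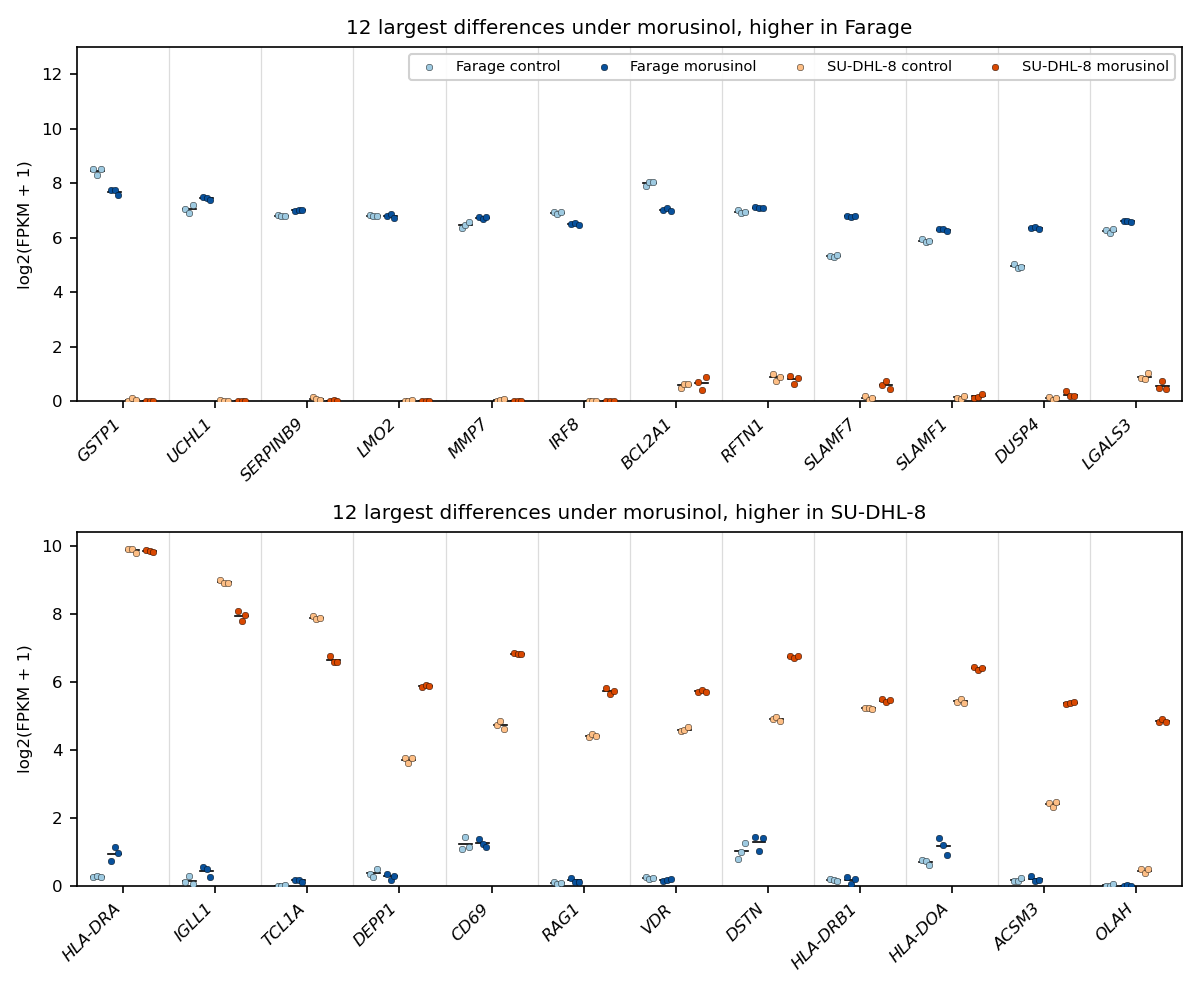
Expression in log2 of FPKM + 1 of the 12 protein-coding genes with the largest difference in each direction under morusinol, with 1 point per library, 3 per group, and a black line at the group mean. The dark blue (Farage morusinol) and dark orange (SU-DHL-8 morusinol) points do not overlap for any of the 24 genes, and in the upper panel the paler control points lie close to the treated points of the same line for most genes. In the lower panel several genes, DEPP1 and CD69 among them, are higher in treated than in control SU-DHL-8, and OLAH differs between the lines mainly under morusinol.

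Genes of the B cell surface and of receptor signalling were mostly higher in Farage. Of 34 tested surface antigens and coreceptors, 25 were higher in Farage and 8 in SU-DHL-8, with a median difference of 1.75, beside 33.0% and 32.1% and a median of 0.01 over all genes. In the controls the counts were 28 and 6 and the median 1.60. Of the 10507 protein-coding genes tested, 78.3% were called under morusinol, and each list count below is to be read against these shares. Besides SLAMF7 and SLAMF1, TNFRSF13C (the receptor for the survival factor BAFF) was at 61.3 ± 1.35 FPKM in Farage and 0.334 ± 0.103 in SU-DHL-8, and CR2 (complement receptor, the docking site of Epstein-Barr virus) at 52.5 ± 1.15 and 0.526 ± 0.103. CD24, a small surface glycoprotein of early and germinal centre B cells, was the opposite, at 0.0641 ± 0.0551 and 21.6 ± 2.67.

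The 2 chains of the antigen receptor's signalling pair differed in opposite directions. CD79A read 396, 384 and 349.9 FPKM in treated Farage and 46.3, 41.7 and 40.97 in treated SU-DHL-8, while CD79B, its partner chain, read 14.2, 11.5 and 10.03 and 92.4, 91.3 and 91.3. Each was fully apart between the lines (differences 3.1 ± 0.064 and -2.85 ± 0.102). For CD79A the gap was wider than in the controls, where the means were 391 and 175 FPKM. MS4A1, the gene of CD20, stood at 86.6, 90.7 and 101 FPKM in Farage and 11.5, 10.7 and 11.8 in SU-DHL-8, with a narrower gap than in the controls (356 and 17.1). CD22, an inhibitory coreceptor, was at 81.2 ± 3.2 and 3.1 ± 0.443, and PAX5, the factor that fixes B cell fate, at 29.9 ± 0.811 and 45.1 ± 2.36, a difference under 2-fold.

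Of 28 genes of B cell receptor signalling, 21 were higher in Farage and 5 in SU-DHL-8 (median 1.33). VAV2, an exchange factor for small GTPases, was at 36.5 ± 2.73 FPKM in Farage and 0.31 ± 0.0198 in SU-DHL-8. PTPN6, the phosphatase SHP-1 that dampens receptor signals, was at 37.6 ± 1.04 and 1.02 ± 0.222, and FGR, a kinase of the SRC family, at 10.6 ± 1.17 and 0.00659 ± 0.0114. FYN, of the same kinase family, closed in from a control difference of 3.84 to 1.77 under the drug, and its SU-DHL-8 mean was 1.37 FPKM in the controls and 10.8 in the treated cells.

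Among 24 transcription factors of B cell identity the directions were mixed, 13 higher in Farage and 10 in SU-DHL-8 (median 0.56). The shares over all genes were 33.0% and 32.1%. BCL6, the repressor that holds the germinal centre programme, was at 15.9 ± 0.576 FPKM in Farage and 0.285 ± 0.122 in SU-DHL-8, and IKZF3, the factor Aiolos, at 53.2 ± 2.64 and 2.37 ± 0.0725. BACH2, which holds back plasma cell differentiation, was the opposite at 2.06 ± 0.209 and 61.2 ± 2.23. IRF4, which acts in activated B cells and plasma cells, ended at a similar level although called, reading 97.7, 98.1 and 98.7 FPKM in Farage and 118, 117 and 121 in SU-DHL-8. In the controls IRF4 was higher in Farage, at 48.5 against 33.6 FPKM, and the difference of the responses was -0.79 ± 0.056 (limma adjusted p = 3.6e-06).

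SPIB, an ETS factor of mature B cells, had the greatest change of gap in that list and was picked out after its values were seen. It read 22.3, 24.2 and 20.7 FPKM in treated Farage and 0.598, 0.559 and 0.562 in treated SU-DHL-8, whereas the controls read 20.6, 17.8 and 17.9 and 12.01, 13.5 and 13.7. The control groups were within 2-fold of each other, and the treated SU-DHL-8 libraries stood far below the other 9. The difference of the responses was 3.4 ± 0.103 (limma adjusted p = 2.8e-08). ID3, an inhibitor of E proteins, was lower in treated than in control SU-DHL-8 as well, at 26.1 against 121 FPKM, while Farage was at 3.53 and 3.6, so its gap was -2.59 under the drug and -4.74 in the controls.

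Of 21 germinal centre genes, 16 were higher in Farage and 5 in SU-DHL-8 (median 0.998), and of 16 genes of activated B cells, 11 and 4 (median 1.80). Both lists thus leaned to Farage. P2RY8, a receptor that confines B cells to the germinal centre, was at 71.2 ± 1.83 FPKM in Farage and 2.15 ± 0.125 in SU-DHL-8. CXCR4, the chemokine receptor of the dark zone, was at 27.7 ± 1.37 and 230.3 ± 9.18. From the activated list, ITPKB, a kinase of inositol phosphates, was at 83.03 ± 3.98 and 0.852 ± 0.0386, and PIM2, a survival kinase, at 149.7 ± 12.3 and 15.5 ± 0.834. PIM2 was 38.3 FPKM in the Farage controls and 14.4 in the SU-DHL-8 controls, so its gap was wider under the drug (1.83 ± 0.098, limma adjusted p = 6.4e-07).

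The most one-sided lists were those tied to Epstein-Barr virus latency and to NF-kappaB. These lists share members, BCL2A1, EBI3 and TRAF1 among them, so their counts are not independent of each other. Of 26 tested host genes known to be induced by latency proteins, 25 were higher in Farage and 0 in SU-DHL-8, with a median difference of 2.67 and 18 of them at least 2-fold apart, beside 15.0% of all genes. The controls gave 25 and 0 too, with a median of 2.65, and the difference of the responses was called towards SU-DHL-8 for 12 and towards Farage for 4. TRAF1, an adaptor of TNF receptors and of LMP1, read 97.6, 93.6 and 89.8 FPKM in Farage and 1.04, 1.31 and 1.1 in SU-DHL-8. EBI3, named for its induction by the virus and a subunit of the cytokines IL-27 and IL-35, read 43.9, 46.9 and 43.5 and 0.0703, 0 and 0, and RUNX3 was at 66.4 ± 3.85 and 0.19 ± 0.0988. No viral transcripts were analysed here, since the table lists human genes, and the list was chosen with earlier results of these data known.

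Of 30 NF-kappaB subunits and targets, 28 were higher in Farage and 1 in SU-DHL-8 (median 2.49), with 28 and 1 in the controls (median 2.55). By the difference of the responses, 13 were called towards SU-DHL-8 and 5 towards Farage, and the median of the 16 targets was 3.03 under the drug and 4.01 in the controls. LTA, the cytokine lymphotoxin alpha, was at 36.2 ± 1.94 FPKM in Farage and 0.414 ± 0.114 in SU-DHL-8, and CD83 at 98.8 ± 1.78 and 3.98 ± 0.119. BIRC3, an inhibitor of apoptosis that NF-kappaB raises, was at 189.7 ± 17.4 and 19.3 ± 0.644. A few members ended close together: RELB, the subunit of the alternative pathway, read 95.1, 89.2 and 78.4 FPKM in Farage and 67.2, 67.3 and 66.4 in SU-DHL-8, against 45.8, 41.1 and 45.7 and 12.7, 14.9 and 13.4 in the controls. Its difference was 0.38 ± 0.076 under the drug and 1.63 without it, and NFKBIZ, an atypical inhibitor that acts in the nucleus, went from 1.53 to 0.32.

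MHC class II genes were mostly higher in SU-DHL-8. Of 21 tested genes of the class II chains, their loading machinery and their regulators, 15 were higher in SU-DHL-8 and 3 in Farage, with a median difference of -1.99, and 13 of the 15 were at least 2-fold apart, beside 10.4% of all genes. All 9 chain genes that were tested were higher in SU-DHL-8. Besides HLA-DRA, HLA-DPA1 was at 3.89 ± 0.687 FPKM in Farage and 80.2 ± 1.19 in SU-DHL-8, and HLA-DPB1 at 0.578 ± 0.0103 and 32.98 ± 0.559. HLA-DOA, a chain of the HLA-DO modulator of peptide loading, was at 1.29 ± 0.382 and 84.03 ± 2.53. HLA-DRB1 was at 0.126 ± 0.0818 and 42.9 ± 1.34; it shares much sequence with other DRB genes and is highly variable between people, so its own level is uncertain.

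The rest of the class II machinery was mixed. CIITA read 7.9, 8.14 and 8.36 FPKM in treated Farage and 11.9, 11.2 and 11.9 in treated SU-DHL-8, a difference of -0.47 ± 0.064, under 2-fold, and in the controls it was higher in Farage (9.19 against 6.82 FPKM). HLA-DMA, a chain of the editor that loads peptides, was at a similar level, reading 21.4, 20.7 and 23.1 and 22.96, 20.6 and 21.3, and its partner HLA-DMB was higher in Farage, at 13.7 ± 0.793 and 6.22 ± 0.196. CD74, the invariant chain, was at 92.5 ± 3.25 and 376 ± 26.7, and RFX5, a subunit of the factor that binds class II promoters with CIITA, at 15.5 ± 0.588 and 84.4 ± 2.84. NFYA, a subunit of the factor that binds the CCAAT box of class II promoters, was at 10.8 ± 1.04 and 47.9 ± 0.775, while its partners NFYB and NFYC were at similar levels. In treated Farage the 9 chain genes had means from 0 to 3.89 FPKM, while CIITA and both HLA-DM genes were present. The difference of the responses was called towards SU-DHL-8 for 12 of the 21 genes and towards Farage for 2, beside 17.6% and 17.3% of all genes, and for 6 and 2 with TPM scaling.

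Immunoglobulin constant genes marked the lines by which chains they carried. Of 9 tested, IGHM and IGHD (the mu and delta heavy chains) were higher in Farage, and the other 7 were higher in SU-DHL-8. IGHM read 366, 350.4 and 328 FPKM in Farage and was at a listed 0 in every SU-DHL-8 library, and IGHD read 32.96, 35.6 and 34.5 and was listed at 0 as well. IGHG3 (gamma heavy chain) read 334, 304 and 292 in SU-DHL-8 and 2.13, 2.1 and 2.56 in Farage. IGLC3 (lambda light chain) read 648, 614 and 608 in SU-DHL-8 and 0.513, 1.5 and 0.303 in Farage, and IGKC (kappa light chain) was well expressed in both, at 621 ± 17.7 FPKM in Farage and 1755 ± 45.6 in SU-DHL-8. IGLC2 and IGLC3 are near-identical over much of their length, as are the IGHG genes, so reads may be shared within each set. IGLL1 is related to the IGLC genes over part of its length, so some of its reads may be shared with them too.

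Plasma cell genes leaned to different lines with and without the drug. Of 13 tested, 2 were higher in Farage and 10 in SU-DHL-8 (median -0.69), whereas in the controls 8 were higher in Farage and 4 in SU-DHL-8 (median 0.48). By the difference of the responses, 11 of the 13 were called towards SU-DHL-8. JCHAIN, which joins IgM and IgA into polymers, read 2.04, 2.97 and 3.44 FPKM in treated Farage and 2.57, 3.15 and 3.65 in treated SU-DHL-8, groups that overlapped, whereas the controls stood at 20.8 and 1.94. MZB1, a chaperone for IgM, read 33.3, 32.8 and 30.3 and 241, 232 and 228 under the drug, and CD38, a surface enzyme of plasma cells and germinal centre cells, 3.82, 3.81 and 4.61 and 69.4, 69.4 and 70.5. MZB1 and CD38 were not among the genes flagged below, whose log2 difference departed from that in the controls by at least 2. Their treated gaps were both larger than 2, so the order of the lines was not reversed for either. PRDM1, the factor BLIMP1 that sets plasma cell fate, was low in both, at 2.16 ± 0.18 and 4.11 ± 0.513. Its difference was -0.69 under the drug and 0.67 in the controls, a reversal of order with a difference of the responses of -1.37 ± 0.128 (limma adjusted p = 2.5e-05).

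**Figure D3:**
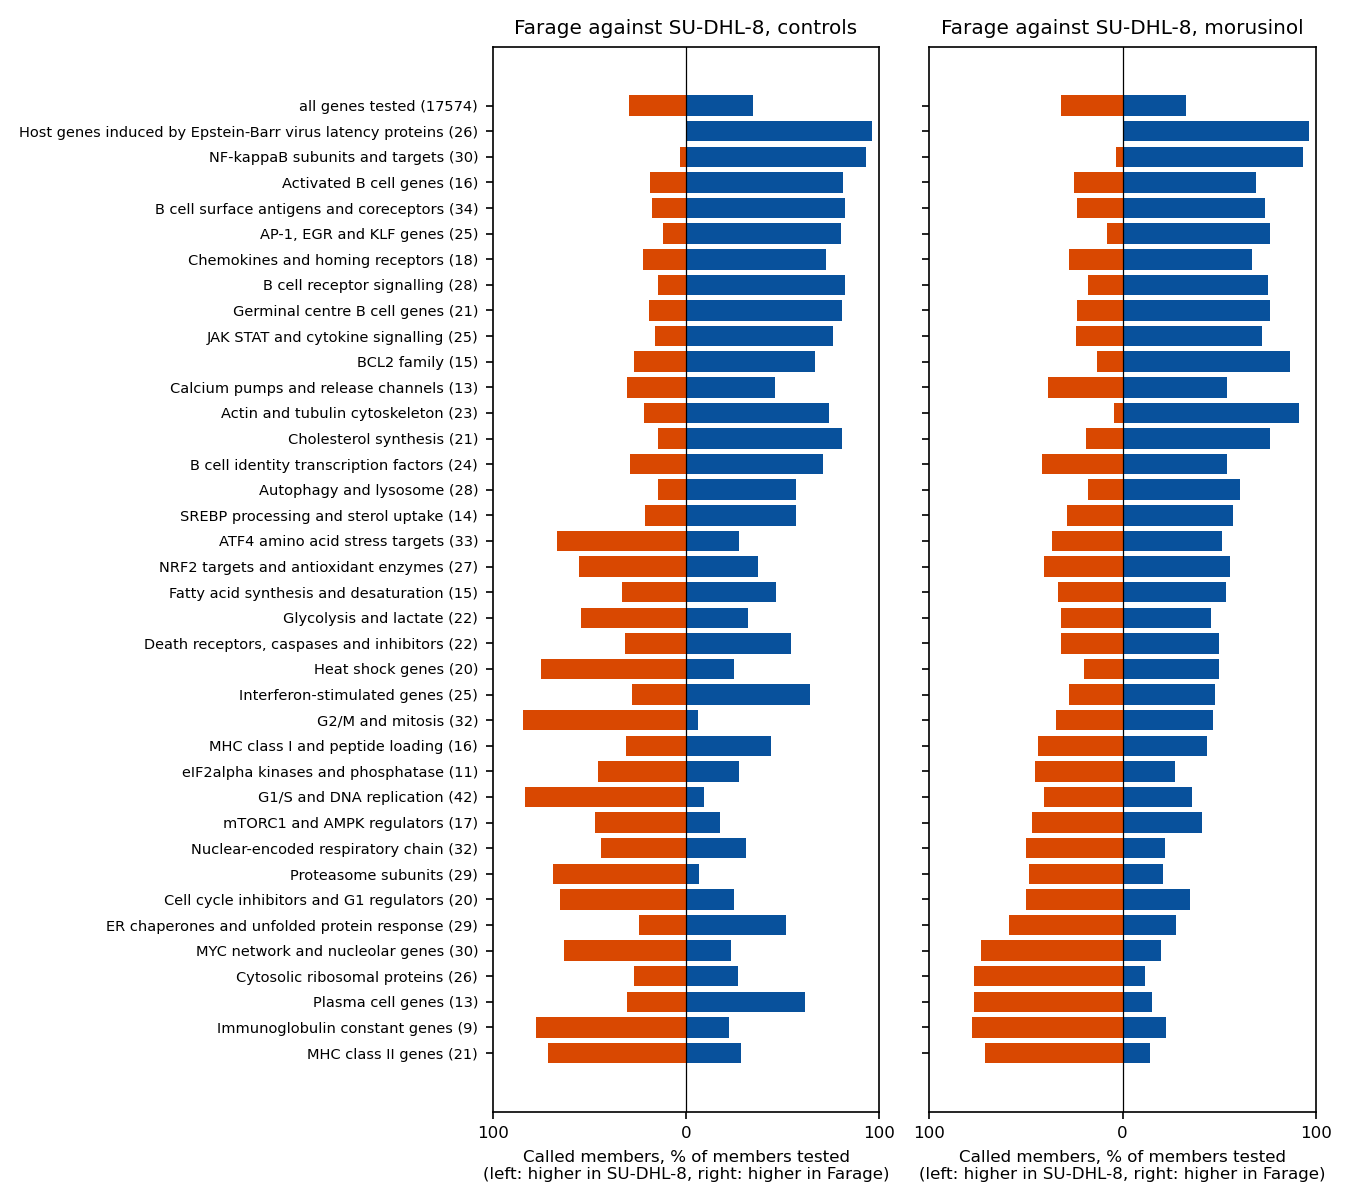
Share of tested members of the gene lists shown called higher in SU-DHL-8 (orange, to the left) or in Farage (blue, to the right), in the controls and under morusinol, with the number tested in brackets. Lists are in order of their median difference under morusinol, the top row is all 17574 genes, and the lists on ATF4 targets, plasma cells, G2/M and the endoplasmic reticulum differ between the 2 panels.

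The endoplasmic reticulum and ATF4 lists departed from the controls in opposite directions. The promoters of the chaperone list are shown first, because 8 of its 27 genes with an entry in the RefSeq promoter table (29.6%, counting any promoter of a gene) hold the endoplasmic reticulum stress element, spelled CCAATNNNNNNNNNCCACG and searched on both strands in the 250 bases before the start, against 26 of 35116 promoters (0.0740%) in that table. Its first 5 letters alone, CCAAT, are found in 32.0% of promoters and in 24 of the 27 genes. The MHC class II list, counted per gene in the same way, gave 14 of 18 genes (77.8%) for CCAAT and 0 of 18 for the full element. A gene with several promoters has more chances of a match, so shares per gene and per promoter are not on the same footing. The sequences are from RefSeq on build GRCh38.p14, 5′ to 3′ on the strand of the gene, with the fixed letters of the element in capitals, and end at the base before the start. They lie at chr9:125241344-125241593 (HSPA5, minus strand), chr12:103930160-103930409 (HSP90B1, plus strand), chr22:28800570-28800819 (XBP1, minus strand) and chr19:12938359-12938608 (CALR, plus strand). A match is a description of the letters and does not show that a factor binds there.
HSPA5: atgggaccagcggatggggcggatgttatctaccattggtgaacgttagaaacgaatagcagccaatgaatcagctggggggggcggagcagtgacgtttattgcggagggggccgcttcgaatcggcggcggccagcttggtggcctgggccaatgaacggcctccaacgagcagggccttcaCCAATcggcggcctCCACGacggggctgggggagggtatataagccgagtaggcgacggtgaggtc
HSP90B1: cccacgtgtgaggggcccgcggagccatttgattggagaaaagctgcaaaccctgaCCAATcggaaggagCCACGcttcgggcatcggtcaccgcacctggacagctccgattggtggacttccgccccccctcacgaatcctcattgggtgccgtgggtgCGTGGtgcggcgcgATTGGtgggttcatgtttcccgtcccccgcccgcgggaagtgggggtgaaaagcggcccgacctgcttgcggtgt
XBP1: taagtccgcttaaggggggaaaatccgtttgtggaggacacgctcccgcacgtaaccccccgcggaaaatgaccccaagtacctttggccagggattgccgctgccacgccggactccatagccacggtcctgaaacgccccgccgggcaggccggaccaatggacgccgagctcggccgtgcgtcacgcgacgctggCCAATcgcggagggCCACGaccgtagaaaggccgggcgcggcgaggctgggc
CALR: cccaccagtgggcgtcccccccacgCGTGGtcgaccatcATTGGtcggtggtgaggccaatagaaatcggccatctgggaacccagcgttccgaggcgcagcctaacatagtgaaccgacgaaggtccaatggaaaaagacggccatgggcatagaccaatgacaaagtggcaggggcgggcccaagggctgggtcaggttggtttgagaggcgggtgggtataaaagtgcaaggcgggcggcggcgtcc

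HSP90B1 holds 2 copies on opposite strands and the other 3 genes 1 copy each, and the 4 genes did not share a direction between the lines. HSPA5, the chaperone BiP, read 282, 287 and 279.5 FPKM in treated Farage and 376, 373 and 375 in treated SU-DHL-8, against 118, 108 and 111 and 71.9, 73.1 and 74.2 in the controls. The order was thus reversed, from 0.61 in the controls to -0.40 ± 0.035 under the drug, although under the drug the level was similar by the 1.5-fold margin. HSP90B1, the chaperone GRP94, was at 63.3 ± 2.27 and 141 ± 0.803, more than 2-fold apart, and XBP1, which read 50.8, 51.4 and 48.7 and 127, 126 and 124, was also higher in SU-DHL-8 but by less than in the controls (-1.3 against -1.84). CALR, a lectin chaperone, was higher in Farage, at 707 ± 27.4 and 470.4 ± 14.4.

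Of 29 tested genes in that list, 17 were higher in SU-DHL-8 and 8 in Farage under morusinol (median -0.33), against 7 and 15 in the controls in that order (median 0.23), and 14 ended at a similar level. With TPM scaling 11 were higher in SU-DHL-8 and 10 in Farage. By the difference of the responses, 18 members were called towards SU-DHL-8 and 3 towards Farage, beside 17.6% and 17.3% of all genes. PDIA4, a disulfide isomerase, had a difference of -0.58 ± 0.042 under the drug and 0.47 in the controls, and HYOU1, a chaperone of the HSP110 family, -0.33 ± 0.06 and 0.82. ERN1, the sensor IRE1 that splices XBP1, read 2.16, 2.33 and 2.46 FPKM in treated Farage and 10.001, 11.1 and 10.8 in treated SU-DHL-8, with control means of 0.587 and 0.758. HERPUD1 and CRELD2 stayed higher in Farage, at 268 ± 3.9 and 58.7 ± 1.01 FPKM and at 41.8 ± 2.51 and 13.6 ± 0.862, with smaller gaps than in the controls (3.0 and 2.2).

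Targets of ATF4 departed the other way. Of 33 tested, 17 were higher in Farage and 12 in SU-DHL-8 (median 0.28), against 9 and 22 in the controls (median -0.76). The difference of the responses was called towards Farage for 28 and towards SU-DHL-8 for 2, beside 17.3% and 17.6% of all genes. ATF4 itself ended at a similar level, reading 306, 306 and 279 FPKM in Farage and 353, 335 and 318 in SU-DHL-8, from control means of 113 and 233. Its small difference of -0.17 changed sign with TPM scaling (0.05, limma adjusted p = 0.62). MTHFD2, a mitochondrial folate enzyme, and ATF3, a stress-induced repressor, also came close to level, with differences of 0.08 ± 0.051 and 0.41 ± 0.055 against -0.60 and -0.37 in the controls.

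Within the ATF4 list some enzymes of serine and cysteine synthesis were higher in Farage. PHGDH, the first enzyme of serine synthesis, read 52.9, 50.02 and 46.4 FPKM in Farage and was listed at 0 in all treated SU-DHL-8 libraries. PSAT1, the second enzyme, read 241, 233 and 246 in Farage and 67.97, 69.3 and 70.8 in SU-DHL-8, from controls of 43.2, 42.1 and 44.9 and 46.9, 51.8 and 47.1 that lay close together. PSPH, the third, ended at a similar level (34.2 ± 2.45 and 42.4 ± 1.97) after a control difference of -1.54. CTH, which makes cysteine from cystathionine, was at 81.4 ± 1.47 and 27.7 ± 0.615, and SLC7A11, the cystine transporter, at 44.1 ± 3.1 and 19.1 ± 1.44. So the first 2 serine enzymes were apart between the lines and the last was at a similar level.

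Other members higher in Farage were STC2, a secreted glycoprotein (38.3, 36.6 and 35.7 FPKM against 0.0872, 0.0489 and 0.0396), DDIT4, which restrains mTORC1 (303, 305 and 278 against 56.2, 54.9 and 59.4), and CHAC1, which degrades glutathione (57.6, 57.4 and 50.9 against 22.7, 19.2 and 20.2). DDIT3, CEBPB and TRIB3 stayed higher in SU-DHL-8. DDIT3, the factor CHOP, read 56.5, 60.1 and 53.4 FPKM in Farage and 133, 126 and 136 in SU-DHL-8, CEBPB read 41.1, 41.6 and 39.6 and 151, 138 and 143, and TRIB3, a pseudokinase that CHOP and ATF4 raise, 51.7, 55.4 and 48.8 and 239.9, 226 and 213. For all 3 the gap was narrower than in the controls (-1.93, -3.22 and -2.59). GPT2, a mitochondrial alanine aminotransferase, narrowed most among the members higher in SU-DHL-8, from -3.8 to -1.44.

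**Figure D4:**
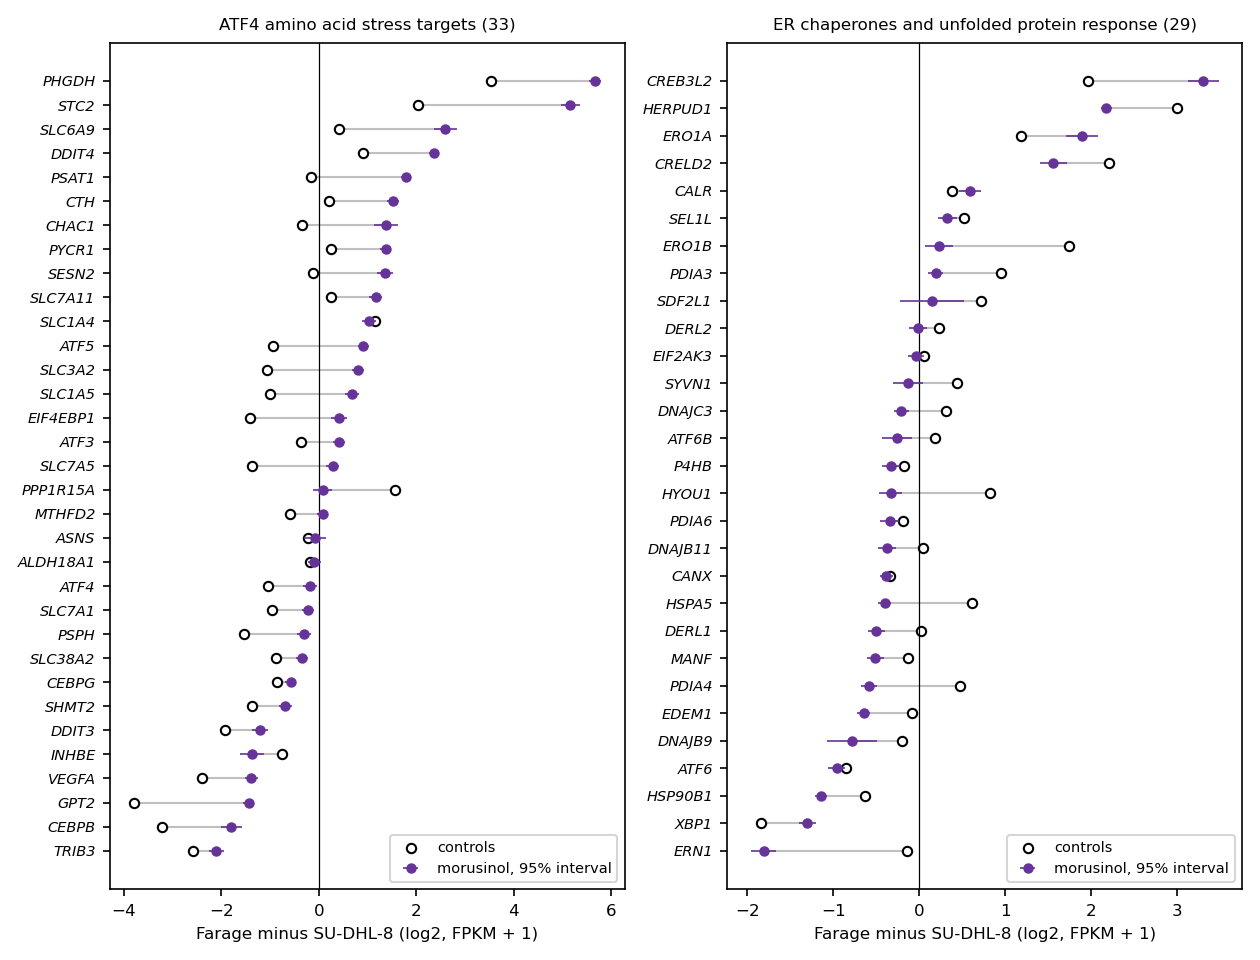
Farage minus SU-DHL-8 difference in log2 of FPKM + 1 for the 33 ATF4 targets (left) and 29 endoplasmic reticulum genes (right), with controls as open circles and morusinol as filled circles with the 95% interval. In the left panel most filled circles lie to the right of their open circle (28 of 33 called towards Farage), and in the right panel most lie to the left (18 of 29 called towards SU-DHL-8).

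The most abundant protein-coding genes at a similar level were replication-dependent histones and ribosomal proteins: H4C3, H2BC12, H1-5, RPS2, H2AC8, H2BC4, H3C8, RPL13A, H4C2 and RPS6. H4C3 read 1923, 1842 and 1687 FPKM in Farage and 1709, 1814 and 1597 in SU-DHL-8, overlapping groups with a difference of 0.09 ± 0.075. H1-5, a linker histone, read 1391, 1377 and 1211 and 1365, 1417 and 1310.3, also overlapping (-0.04 ± 0.064). With TPM scaling the differences of H1-5, H2BC12 and RPL13A became positive, at 0.18 (limma adjusted p = 0.0043), 0.11 (0.093) and 0.03 (0.74). Clustered histone genes are near-identical copies and ribosomal protein genes have many pseudogenes, so reads may be shared within each family.

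Genes of the cell cycle were mostly higher in SU-DHL-8 in the controls and went both ways under the drug. Of 32 genes of G2 and mitosis, 15 were higher in Farage and 11 in SU-DHL-8 under morusinol (median 0.07), and 16 were at a similar level, beside 38.7% of all genes with a group mean of at least 5 FPKM. That compares with 2 and 27 in the controls (median -0.67). By the difference of the responses, 30 of 32 were called towards Farage, beside 17.3% of all genes and 2842 of 10507 protein-coding genes. AURKA, a mitotic kinase, read 28.8, 31.1 and 33.3 FPKM in treated Farage and 39.02, 37.7 and 39.1 in treated SU-DHL-8, from control means of 27.1 and 90.5. CCNB1, the mitotic cyclin B1, went from -0.53 to 0.64, and BUB1B, a checkpoint kinase, from -0.39 to 0.82, while CDC25B, a phosphatase that activates the cyclin-dependent kinases and the only G2 and mitosis member at least 2-fold apart (-1.65), UBE2C (-0.92) and BUB1 (-0.83) stayed higher in SU-DHL-8. The proliferation marker MKI67 was at 69.4 ± 4.2 FPKM in Farage and 40.02 ± 2.49 in SU-DHL-8.

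Of 42 genes of G1/S and DNA replication, 15 were higher in Farage, 17 in SU-DHL-8 and 19 at a similar level (median -0.08, with 2 at least 2-fold higher in Farage and 7 in SU-DHL-8), against 4 and 35 in the controls (median -0.56). The median turned to 0.13 with TPM scaling. PCNA, the sliding clamp of replication, was at 129 ± 0.851 FPKM in Farage and 196 ± 7.64 in SU-DHL-8, with control means of 237 and 614. POLD2, a subunit of DNA polymerase delta, stayed at least 2-fold higher in SU-DHL-8 (-1.74 ± 0.058), and GINS2, of the replicative helicase, was higher in Farage (1.54 ± 0.049). CDK2, a kinase of S phase entry, read 40.3, 37.8 and 36.6 FPKM in treated Farage and 10.3, 11.8 and 11.4 in treated SU-DHL-8, against 21.1 and 30.9 in the controls, so its order was reversed. Of 20 cell cycle inhibitors and G1 regulators, 7 were higher in Farage and 10 in SU-DHL-8, 8 of them at least 2-fold, and 4 were at a similar level. RB1, the retinoblastoma protein, was at 10.5 ± 0.67 and 40.2 ± 2.29, and CDK6 at 52.8 ± 5.53 and 14.1 ± 0.594.

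Cytosolic ribosomal proteins were slightly higher in SU-DHL-8. Of 26 tested, 20 were higher in SU-DHL-8 and 3 in Farage (median -0.39), but none reached 2-fold and 18 were at a similar level; the controls gave 7 each way (median 0.05). Against the controls, 24 were called towards SU-DHL-8, and 11 with TPM scaling. RPL11 read 182, 178 and 202 FPKM in Farage and 334, 370.0 and 363 in SU-DHL-8, and RPLP0, one of the 3 exceptions, 918, 901 and 802 and 586, 560.3 and 538. Of 30 genes of the MYC network and nucleolus, 22 were higher in SU-DHL-8 and 6 in Farage (median -0.35). This median and that of the ribosomal proteins are small and should be read against the shift with TPM scaling given above. MYC read 28.8, 27.6 and 27.98 FPKM in Farage and 75.2, 65.8 and 69.9 in SU-DHL-8, and NOP56, a core protein of box C/D snoRNPs, was at 33.6 ± 2.07 and 75.95 ± 2.89.

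Of the genes of cell death, the BCL2 family was mostly higher in Farage and the death receptors and caspases were split. Of 15 tested members of the BCL2 family, 13 were higher in Farage and 2 in SU-DHL-8 (median 0.90). Among the protectors, BCL2 read 43.4, 42.1 and 46.97 FPKM in Farage and 5.86, 6.09 and 5.99 in SU-DHL-8, and MCL1 was at a similar level, 82.1 ± 2.26 and 63.4 ± 1.74. Among the killers, PMAIP1 (NOXA) read 171, 163 and 174 and 42.5, 41.4 and 43.3, BIK was at 49.4 ± 4.46 and 0.745 ± 0.218, BMF at 16.5 ± 0.861 and 2.33 ± 0.464, and BBC3 (PUMA) at 12.4 ± 1.38 and 5.99 ± 0.275. BCL2L11 (BIM) ended at a similar level, reading 12.5, 11.7 and 11.3 and 13.95, 14.95 and 14.1, after control means of 4.85 and 16.8. Of 22 death receptors, caspases and inhibitors, 11 were higher in Farage and 7 in SU-DHL-8 (median 0.18), beside 33.0% and 32.1% of all. CASP1, the inflammasome caspase, was higher in SU-DHL-8, at 0.545 ± 0.0808 and 6.7 ± 0.736.

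CDKN1A, the cell cycle inhibitor p21, read 11.6, 10.6 and 10.8 FPKM in Farage and 4.8, 2.95 and 4.37 in SU-DHL-8, and DDB2, of nucleotide excision repair, was at 22.4 ± 0.171 and 4.87 ± 0.446. SESN2, which ATF4 raises, read 94.4, 90.8 and 86.2 and 36.7, 34.1 and 33.8, from control means of 6.69 and 7.42 that were close.

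Enzymes of cholesterol synthesis were mostly higher in Farage with and without the drug. Of 21 enzymes, 16 were higher in Farage and 4 in SU-DHL-8 (median 0.68), against 17 and 3 in the controls (median 0.87). By the difference of the responses, 11 were called towards SU-DHL-8 and 4 towards Farage (7 and 4 with TPM scaling), and for the 8 mevalonate enzymes 6 and 0. LSS, which folds squalene epoxide into lanosterol, was at 25.8 ± 2.0 FPKM in Farage and 1.65 ± 0.0343 in SU-DHL-8. FDPS and ACAT2, farther up the pathway, were higher in SU-DHL-8 (-0.76 ± 0.071 and -0.95 ± 0.076), FDPS having been higher in Farage in the controls (0.46). SREBF2, the factor that drives these enzymes, was at 66.02 ± 3.41 and 24.7 ± 0.483.

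The list on NRF2 targets and antioxidant enzymes was split, 15 of 27 higher in Farage and 11 in SU-DHL-8 (median 0.27). That stands beside 33.0% and 32.1% of all genes, and the controls gave 10 and 15 (median -0.21). Against the controls, 17 were called towards Farage and 2 towards SU-DHL-8. HMOX1, heme oxygenase, read 48.4, 44.4 and 41.8 FPKM in Farage and 0.0765, 0.0716 and 0 in SU-DHL-8. TXN, thioredoxin, read 383, 379 and 370.0 and 109, 109 and 110.1, and GPX4, which repairs lipid peroxides, 106, 102 and 93.7 and 31.8, 27.05 and 29.6. PRDX2, a peroxiredoxin, was higher in SU-DHL-8, at 5.11 ± 1.93 and 18.2 ± 0.499.

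Some genes were at a similar level in the controls and called different under the drug. By the rule that the control interval lies within 1.5-fold, the treated difference is called and the responses differ, this gap opened for 1188 genes (6.76% of those tested), 689 higher in Farage and 499 higher in SU-DHL-8. Of these, 501 were still within the 1.5-fold margin under the drug, and 106 were at least 2-fold apart. TFRC (chr3:196027183-196082189), the transferrin receptor through which cells take up iron, was the largest. It read 111, 112 and 113 FPKM in treated Farage and 10.8, 10.3 and 11.9 in treated SU-DHL-8, against 94.03, 96.1 and 99.9 and 73.4, 75.3 and 68.6 in the controls. Treated SU-DHL-8 was the low group and the other 3 groups lay within 2-fold of one another, with a difference of the responses of 2.83 ± 0.073 (limma adjusted p = 1.1e-08).

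Next on the Farage side were SAMD1, STS, PPP1R18, MOB1B, LRRC42, CDCA2 and PSAT1. SAMD1, which binds unmethylated CpG islands, read 24.8, 26.9 and 23.1 FPKM and 4.46, 3.42 and 4.28 under the drug, from control means of 31.8 and 35.4. STS, steroid sulfatase, read 11.7, 10.6 and 11.7 and 1.59, 1.8 and 1.65, from 7.11 and 6.37. In these, and in PPP1R18 (28.1 and 5.39, from 37.2 and 28.5), treated SU-DHL-8 was the group that stood low. In MOB1B, a coactivator of the Hippo kinases, treated Farage was the group that stood high (25.2 against 5.07, from 7.42 and 6.21).

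On the SU-DHL-8 side the largest were TAGAP, REXO2, C4orf3, TXNDC11, RNF185, COPG1, MPC1 and DGKD. TAGAP, a GTPase-activating protein of activated lymphocytes, read 34.1, 28.2 and 33.1 FPKM in treated SU-DHL-8 and 8.28, 7.92 and 8.32 in treated Farage, from 5.32 and 4.3 in the same order. REXO2, a mitochondrial RNase for short oligonucleotides, read 27.5, 26.8 and 27.8 in SU-DHL-8 and 8.57, 7.01 and 8.5 in Farage, from 7.39 and 7.91 in the same order. COPG1, a coat protein of Golgi vesicles, read 72.9, 69.03 and 72.7 in SU-DHL-8 and 28.8, 26.99 and 26.5 in Farage. In C4orf3 treated Farage was the group that stood low, at 2.26 FPKM against 8.47, 7.97 and 10.2 in the other 3.

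A gap of at least 2-fold in the controls closed to a similar level for 92 genes (0.524%), 33 that had been higher in Farage and 59 that had been higher in SU-DHL-8. PPP1R15A, or GADD34, the phosphatase subunit that reverses eIF2alpha phosphorylation, read 169, 166 and 153 FPKM in treated Farage and 152, 161 and 148 in treated SU-DHL-8, from 47.8, 43.01 and 39.5 and 12.6, 13.7 and 15.9. The treated groups overlapped and both were above both control groups. RGS16, which shortens G protein signals, read 10.4, 12.5 and 11.2 and 13.8, 11.4 and 11.8 from control means of 7.97 and 0.859. VNN2, a pantetheinase on the cell surface, closed from both sides, at 20.6 and 22.1 from 35.4 and 7.11.

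Of those that had been higher in SU-DHL-8, MYADM, a membrane protein of myeloid cells, read 13.3, 13.6 and 13.5 FPKM in treated Farage and 12.04, 10.3 and 11.6 in treated SU-DHL-8, from 1.93 and 17.9. Its difference went from -2.69 to 0.24 ± 0.086. LYL1, a helix-loop-helix factor of blood cells, read 4.7, 4.62 and 3.8 and 6.45, 4.9 and 5.83, from 5.86 and 26.99. Both lines were below their control means, SU-DHL-8 by far more. SLCO4A1 and TMEM106C closed too, with control differences of -2.02 and -1.69 and treated ones of -0.15 and -0.28.

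The order of the lines was reversed, with both differences called, for 554 genes (3.15%), 304 of them higher in Farage under the drug and 250 higher in SU-DHL-8; 279 of these are also counted among the opened gaps. ATF5, a factor of the ATF4 family, read 213, 201 and 203 FPKM in treated Farage and 108, 111 and 108 in treated SU-DHL-8, against 111, 98.8 and 105 and 200.1, 193 and 211 in the controls. The levels were thus exchanged between the lines. CLEC17A, a lectin of germinal centre B cells, read 2.52, 2.21 and 2.64 and 0.524, 0.292 and 0.558 under the drug, from 4.19 and 11.2. GPER1, a G protein-coupled receptor for estrogen, and SLC2A4RG, a transcription factor of the GLUT4 gene, went from -1.12 to 0.92 and from -1.16 to 1.25.

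Reversals in favour of SU-DHL-8 included SEPHS2, which makes the selenium donor for selenoproteins. It read 102, 102 and 102 FPKM in treated SU-DHL-8 and 47.7, 49.3 and 41.5 in treated Farage, from 40.6, 37.2 and 35.4 and 68.2, 64.4 and 76.2 in the controls in the same order. ARHGAP9, a GTPase-activating protein of blood cells, was at 11.8 ± 0.909 in treated SU-DHL-8 and 5.98 ± 0.321 in treated Farage, from 2.93 and 8.86 in the same order. CXCL10, an interferon-induced chemokine, TNFRSF17, the plasma cell receptor BCMA, and PLXNA1, a semaphorin receptor, were low in every group (means under 5 FPKM), with treated differences of -1.97, -0.96 and -0.74 against 0.87, 1.26 and 1.6 in the controls. CXCL10 read 3.45, 3.44 and 3.7 FPKM in treated SU-DHL-8 and 0.0672, 0.182 and 0.238 in treated Farage.

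**Figure D5:**
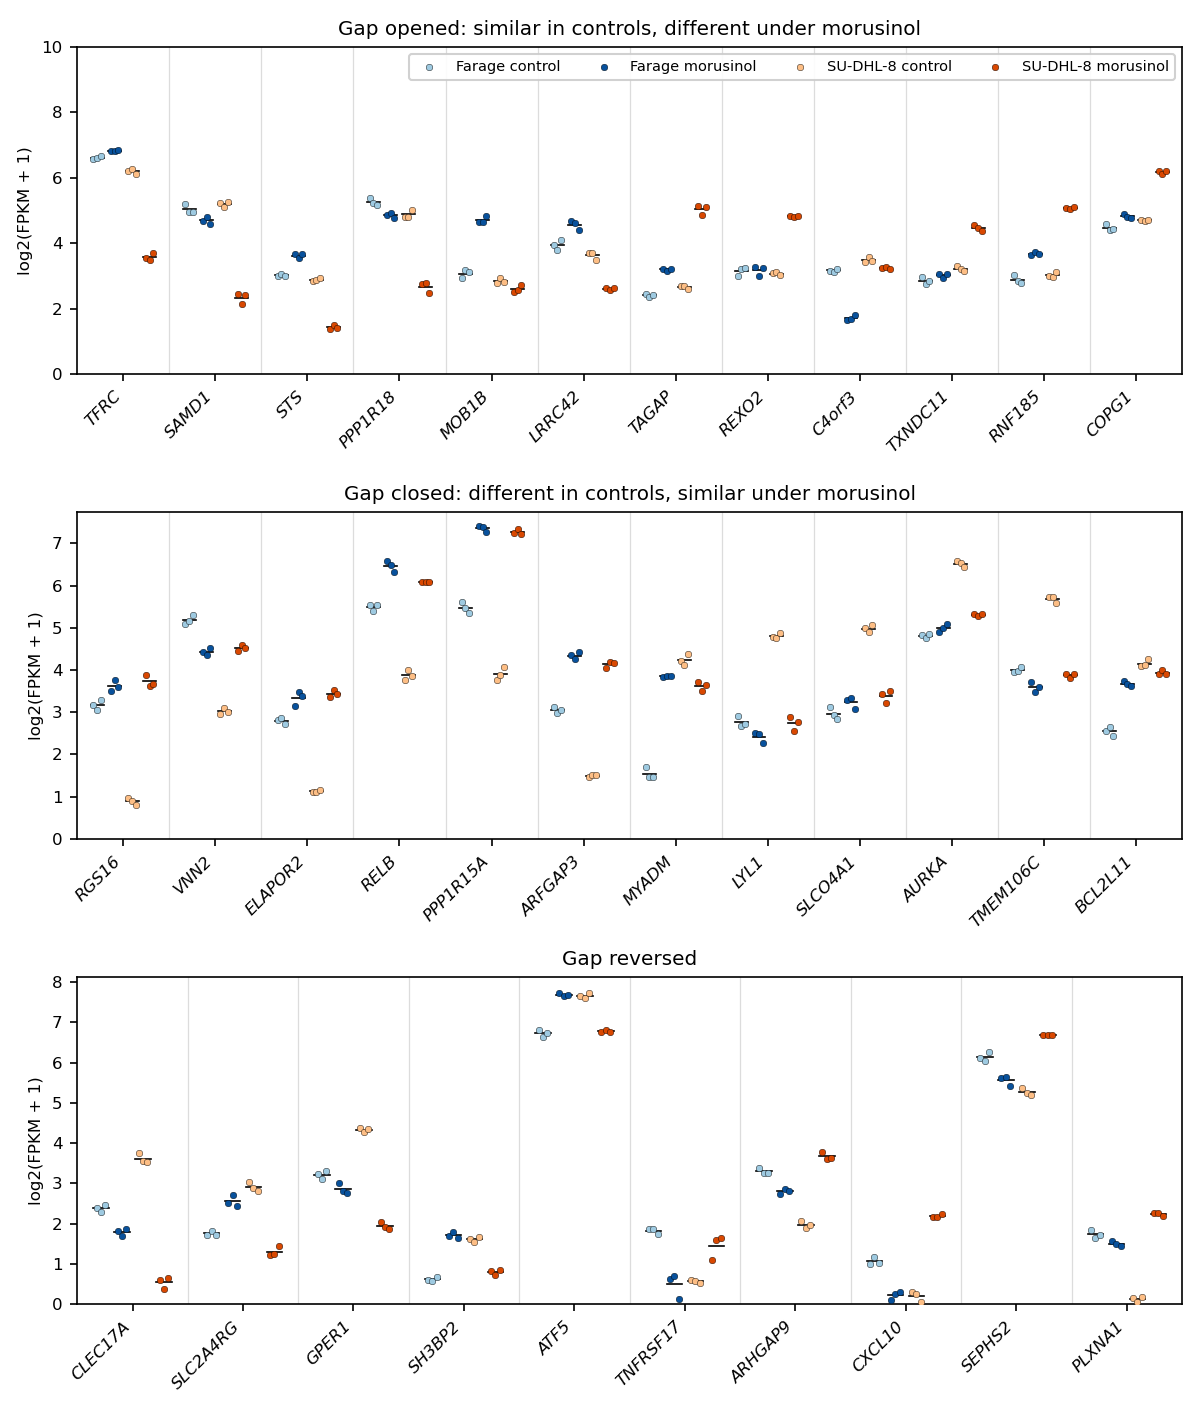
Expression in log2 of FPKM + 1 of genes whose gap between the lines opened (top, 6 per direction), closed (middle, 6 per direction) or was reversed (bottom, 5 per direction) under morusinol, with 1 point per library and a black line at each group mean. In the top panel the pale control points of the lines lie close together and the dark treated points apart, in the middle panel the treated points lie together, and in the bottom panel the order of the lines differs between pale and dark points.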

How the data were processed

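Total RNA of the 12 samples was made into mRNA libraries with a SMARTER kit, per the labels' protocols. The authors deposited 1 table of FPKM for 61466 human Ensembl gene IDs, of which 58297 (94.8%) matched GENCODE 29. No source used here gives the aligner, counter, strand setting or human genome build, and the submitters' processing notes list mouse builds only. The 13 mitochondrial coding genes are listed at 0. Columns were joined to samples by the line, treatment and replicate in their names, with the letter n taken as control because mor marks morusinol. Fragment totals were not used here, and depth was estimated from the smallest steps between low FPKM values and is approximate.

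Values entered limma 3.58.1 in R 4.3.3 as log2(FPKM + 1) in 1 fit of all 12 libraries with a mean per group, an intensity trend and a robust prior (two-sided). The 17574 genes with at least 1 FPKM in at least 3 libraries were tested and adjusted together by Benjamini-Hochberg. The fit was first tested on simulated data. Tables were made with Python 3.11.15 and pandas 2.3.3. The members and gene lists were chosen with earlier results of these data known, and no test was run on a list as a whole. Named genes are the 12 largest per direction among protein-coding genes with at least 5 FPKM, up to 5 per list, 10 at a similar level, 8 per direction with an opened or closed gap, and 5 per direction reversed, plus members whose role a sentence needs; some that the rule names are not reported here. Alternatives changed the pseudocount, filter, scaling, prior, margin, libraries in the fit and replicate block, and left out each library in turn.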

Additional observations from a re-analysis of the deposited data

Results flagged for a closer look

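Given here are 32 list members and named genes picked out because their Farage minus SU-DHL-8 difference under morusinol departed from that in the controls by at least 2 on the log2(FPKM + 1) scale, with the difference of the responses called by limma. In 15 of them the departure was towards Farage. It was 3.40 for SPIB, 3.13 for STC2, 2.93 for MYADM, 2.83 for TFRC, 2.52 for SAMD1, 2.48 for CLEC17A and 2.41 for SLC2A4RG. It was 2.36 for GPT2, 2.22 for CDK2, 2.18 for SLC6A9, 2.15 for ID3, 2.14 for PHGDH, 2.09 for NR4A1, 2.06 for STS and 2.04 for GPER1.

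In the other 17 the departure was towards SU-DHL-8. It was -4.42 for OLAH, -3.02 for JCHAIN, -2.94 for ACSM3, -2.83 for CXCL10, -2.45 for CCL4, -2.38 for RGS16, -2.35 for PLXNA1, -2.26 for VNN2 and -2.25 for DEPP1. It was -2.23 for FADS2, -2.22 for TNFRSF17, -2.20 for ARHGAP9, -2.14 for SERPINA9, -2.10 for RASGRP3, -2.07 for CD69, -2.07 for FYN and -2.0 for SEPHS2.

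SERPINA9, a germinal centre serpin, read 5.71, 4.02 and 4.56 FPKM in treated Farage and 26.02, 23.7 and 22.9 in its controls, and was at a listed 0 in each of the 6 SU-DHL-8 libraries. CCL4, a chemokine of activated B cells, read 0.484, 0.565 and 0.884 and 7.96, 6.67 and 9.02 in Farage and had means of 0.0124 and 0 in SU-DHL-8. FADS2, a fatty acid desaturase, read 5.94, 5.46 and 5.13 in treated Farage and 20.1, 18.9 and 19.5 in its controls, with SU-DHL-8 means of 0.743 and 0.172. For these 3 genes it is thus the treated Farage level that stood below its controls. NR4A1, an immediate early nuclear receptor, was the reverse, at 21.2, 20.5 and 18.7 in treated Farage and 5.43, 4.53 and 4.83 in its controls, with SU-DHL-8 means of 0.596 and 0.909. SLC6A9, a glycine transporter, read 6.72, 5.15 and 5.26 and 0.342, 0.302 and 0.356 in Farage and had means of 0.104 and 0 in SU-DHL-8.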

How the results depend on the processing

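Testing the 8908 genes with at least 5 FPKM in at least 3 libraries gave 7033 calls under morusinol (3515 higher in Farage, 3518 lower, 2607 at least 2-fold), 7043 in the controls (3292 higher, 2521 at least 2-fold), and for the difference of the responses 1922 lower and 664 at least 2-fold; fewer genes were tested. A pseudocount of 5 left 1627 genes at least 2-fold apart under morusinol, 1525 in the controls, 299 for the responses and 55 closed gaps, and one of 0.1 gave 1752 for the responses. With TPM scaling 2024 genes were lower for the responses, and the differences of ATF4 (0.045), RPL13A (0.030), H1-5 (0.177) and H2BC12 (0.108) turned positive. Margins of 1.2-fold and 2-fold gave 921 and 5246 genes at a similar level. For named genes and list members, 9686 values kept their direction and side of the threshold, 133 lost the call, 41 gained it and 4 turned.

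Leaving out 1 library at a time gave 10912 to 11401 calls under morusinol (5497 to 5772 higher, 5353 to 5629 lower, 4441 to 4517 at least 2-fold) and 3133 to 3326 genes at a similar level. It gave 10510 to 11339 in the controls (5520 to 6112 higher, 4909 to 5234 lower, 4123 to 4328 at least 2-fold) and 5364 to 5954 for the responses (2704 to 2934 higher, 2632 to 3020 lower, 1065 to 1228 at least 2-fold). Opened gaps ranged from 1056 to 1187, closed from 80 to 96 and reversed from 459 to 549; the alternatives for these gap counts were chosen after seeing the data. With the replicate number as a block, 11330 genes were called under morusinol, 11145 in the controls, 5786 for the responses. Same-numbered libraries of the 2 lines deviated together with r of 0.005 to 0.054 under morusinol and -0.066 to 0.017 in the controls. Differently numbered ones gave -0.050 to 0.013 and -0.032 to 0.082, so the numbers give no sign of pairing between the lines. Pairing of treated with control libraries within a line was not tested.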

Other observations

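Genes of the actin and tubulin cytoskeleton were mostly higher in Farage, 21 of 23 against 1 in SU-DHL-8 (median 0.70), against 17 and 5 in the controls. The 15 members outside the tubulins, VIM among them, gave 14 and 0 with and without the drug. The 8 tubulin genes gave 7 and 1 under the drug and 3 and 5 in the controls. By the difference of the responses, 7 of the 8 were called towards Farage. ACTB, beta actin, read 436, 440.3 and 428 FPKM in treated Farage and 203, 183 and 186 in treated SU-DHL-8, while the controls stood at 2376 and 927. So this common reference gene was lower in the treated cells of both lines, and its gap between them was 1.19 with and 1.36 without the drug. VIM, the intermediate filament vimentin, was at 51.01 ± 1.55 and 0.737 ± 0.165, and TMSB4X, which binds actin monomers, at 517 ± 22.6 and 116 ± 3.84. Of 25 AP-1, EGR and KLF genes, 19 were higher in Farage and 2 in SU-DHL-8 (median 1.74). DUSP2, a nuclear phosphatase for MAP kinases, read 198, 185 and 161 and 3.2, 1.67 and 2.67, and EGR2 read 22.5, 23.9 and 23.2 and 2.23, 2.16 and 2.25. JUN and FOS were at similar levels, JUN with 25.2, 22.99 and 21.8 in Farage and 24.3, 25.04 and 22.3 in SU-DHL-8.

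Heat shock genes went both ways, with 10 of 20 higher in Farage and 4 in SU-DHL-8, beside 33.0% and 32.1% of all genes. At a similar level were 9, and the controls gave 5 and 15. Against the controls, 12 were called towards Farage and 0 towards SU-DHL-8, beside 17.3% and 17.6% of all genes. HSPB1, a small heat shock protein, read 14.8, 12.04 and 12.02 FPKM in Farage and 0.163, 0.102 and 0.165 in SU-DHL-8, and HSP90AB1, the constitutive cytosolic HSP90, was the opposite at 600.0 ± 20.3 and 1431 ± 35.6. Of 18 chemokines and homing receptors, 12 were higher in Farage and 5 in SU-DHL-8. CCL22, a chemokine for regulatory T cells, read 17.2, 18.04 and 18.4 in Farage and was listed at 0 in SU-DHL-8, while S1PR4, a sphingosine phosphate receptor, read 3.11, 4.11 and 2.41 and 37.1, 33.3 and 33.2. Of 22 glycolysis genes 10 were higher in Farage and 7 in SU-DHL-8, beside 33.0% and 32.1% of all genes. ENO2, an enolase, was at 23.1 ± 1.43 and 0.0622 ± 0.0624, and HK2, a hexokinase, at 8.99 ± 0.323 and 27.2 ± 0.27.

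Of the proteasome subunits, respiratory chain genes and MHC class I genes, 19 of 29, 21 of 32 and 8 of 16 were at a similar level. Their medians of -0.16, -0.16 and -0.01 all became positive with TPM scaling (0.05, 0.06 and 0.21). Exceptions were PSMB8, a subunit of the immunoproteasome (6.5 ± 1.04 FPKM in Farage and 14.8 ± 1.05 in SU-DHL-8, overlapping PSMB9 on the opposite strand), and CYCS, cytochrome c (21.4 ± 1.55 and 57.2 ± 3.56). ITPR1, a calcium release channel, was level in the controls (2.76 and 2.89) and read 2.42, 2.58 and 2.44 in treated Farage and 10.7, 11.1 and 10.9 in treated SU-DHL-8. Of 25 interferon-stimulated genes, 12 were higher in Farage and 7 in SU-DHL-8, beside 33.0% and 32.1% of all genes. The controls gave 16 and 7. Members apart under the drug included MX2 at 1.21 ± 0.155 and 8.85 ± 0.272 and IFITM1 at 9.38 ± 0.629 and 0.581 ± 0.333. TRAC, which carries most of the T cell marker sum, read 49.97, 39.96 and 51.3 in treated Farage and 1.49, 0.507 and 1.26 in treated SU-DHL-8, with control means of 70.02 and 2.3.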
